A study of Mus musculus with 6 samples.

Results

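Interferon response genes are the genes that cells switch on when interferon binds its receptors. A list of 42 such mouse genes was followed here, and a probe set entered when the platform annotation named that gene and no other. Of the 42 genes, 36 were matched, by 52 of the 45037 probe sets and out of 17097 genes on the array. For Oas1a, Bst2, Ifi44, Isg15, Tap1 and B2m no probe set met the rule, and they were not analysed here. The lungs came from 6 male BALB/c mice, all 10 weeks old, and the RNA of each was hybridised to its own MG-430 PM array. The hydrogen group of 3 mice was kept for 3 weeks in air with 2% hydrogen gas. The control group of 3 mice was kept in normal air. The labels name no virus, interferon or other immune stimulus in either group, so the genes were measured in lungs without a labelled challenge. The comparison asks which of these genes differ in the lung after hydrogen exposure.

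Interferons act in a chain. Type I and type III interferons signal through JAK kinases to a complex that holds STAT2 and IRF9 and binds a DNA element called the interferon-stimulated response element (ISRE). Interferon gamma acts mainly through a different element, the gamma-activated site (GAS). The induced proteins sense viral RNA, block its translation, degrade it, trap virus particles or attack the vacuoles of intracellular microbes. In the lung, epithelial cells, macrophages and dendritic cells all make such proteins, and many are present at a low level without infection.

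The promoters show which of the members carry these elements. Promoter sequences of RefSeq (GRCm38.p6), running from 250 bases before to 50 bases after an annotated transcript start, were available for 26 of the 36 genes. Both strands were searched for GAAA, any 2 bases, and GAAA again (ISRE), and for TTC, any 3 bases, and GAA (GAS). The GAS letters read the same on both strands, and the motifs may overlap. ISRE letters were found for 15 of the 26 genes, or 57.7%, against 3.59% of the 13605 genes on the array that had such a sequence. GAS letters were found for 9 of 26 genes, or 34.6%, against 8.76%. The ISRE letters were present for 1 of 3 genes that were higher in hydrogen lungs, 7 of 9 that were lower and 7 of 14 that did not pass the threshold. These matches describe letters and not bound sites. The sequences below lie before the transcript start and outside the annotated gene, with ISRE and GAS letters in capitals. They were picked, with their values known, to set genes that were higher (Irf7, Oas3) beside genes that were lower (Gbp2, Ifit1, Igtp).
Irf7, chr7:141266500-141266649, minus strand: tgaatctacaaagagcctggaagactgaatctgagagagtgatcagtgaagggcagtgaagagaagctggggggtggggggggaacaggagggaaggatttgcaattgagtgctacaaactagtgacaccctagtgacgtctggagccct
Oas3, chr5:120777685-120777834, minus strand: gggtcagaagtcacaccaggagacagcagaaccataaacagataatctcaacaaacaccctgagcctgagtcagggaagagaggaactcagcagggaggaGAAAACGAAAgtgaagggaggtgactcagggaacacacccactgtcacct
Gbp2, chr3:142620513-142620662, plus strand: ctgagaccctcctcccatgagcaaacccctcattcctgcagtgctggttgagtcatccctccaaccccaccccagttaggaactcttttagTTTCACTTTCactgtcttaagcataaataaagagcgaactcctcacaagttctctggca
Ifit1, chr19:34640739-34640888, plus strand: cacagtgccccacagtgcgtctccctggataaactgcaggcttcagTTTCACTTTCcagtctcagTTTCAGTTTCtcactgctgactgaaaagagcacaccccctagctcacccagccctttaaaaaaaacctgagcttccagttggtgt
Igtp, chr11:58199406-58199555, plus strand: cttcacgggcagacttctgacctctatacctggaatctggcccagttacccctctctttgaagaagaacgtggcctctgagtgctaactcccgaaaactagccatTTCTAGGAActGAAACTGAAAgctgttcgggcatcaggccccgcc
Oas3 holds the ISRE letters once, on the strand of the gene, and Igtp holds them beside a GAS. In Ifit1 they occur at 2 places and in Gbp2 at 1 place, both times on the opposite strand. The stretch shown for Irf7 holds neither set of letters. It runs from -225 to -76 relative to the transcript start used, so the bases nearest that start are not shown. The Oas3 stretch runs from -175 to -26, and those of Gbp2, Ifit1 and Igtp from -150 to -1.

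The interferon response genes moved in both directions. Genes of the oligoadenylate synthetase family (Oas2, Oas3, Oasl1), the transcription factor gene Irf7 and the antiviral GTPase gene Mx2 were higher in hydrogen lungs. The kinase gene Eif2ak2, the guanylate-binding protein genes Gbp2 and Gbp3, the membrane protein gene Ifitm1, Ifit1, and 7 further genes were lower. Of the 36 genes, each represented by its brightest probe set, 5 were higher, 12 were lower and 19 did not pass the threshold (limma, Benjamini-Hochberg adjusted p below 0.05, computed over all probe sets). The share called was 47.2%, below the background of 51.4% among all 17097 genes. Of all genes, 25.5% were higher and 25.9% lower. The median log2 fold change, hydrogen minus control, was -0.13 over the members, against 0.01 over all genes. Their median absolute change was 0.22, against 0.20 over all genes. At the level of probe sets 6 of 52 were higher and 17 lower, or 44.2%. Of all probe sets 47.1% were called, 24.3% higher and 22.8% lower. Hydrogen and control values stood fully apart for 18 of the 36 genes, with hydrogen above in 5 and below in 13. Of all genes 61.0% stood apart, 31.2% with hydrogen above and 29.9% below. Of the member probe sets 6 stood apart above and 19 below, against 57.3% of all probe sets (30.9% above and 26.4% below). A count near the background says nothing particular about these genes.

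**Figure D1:**
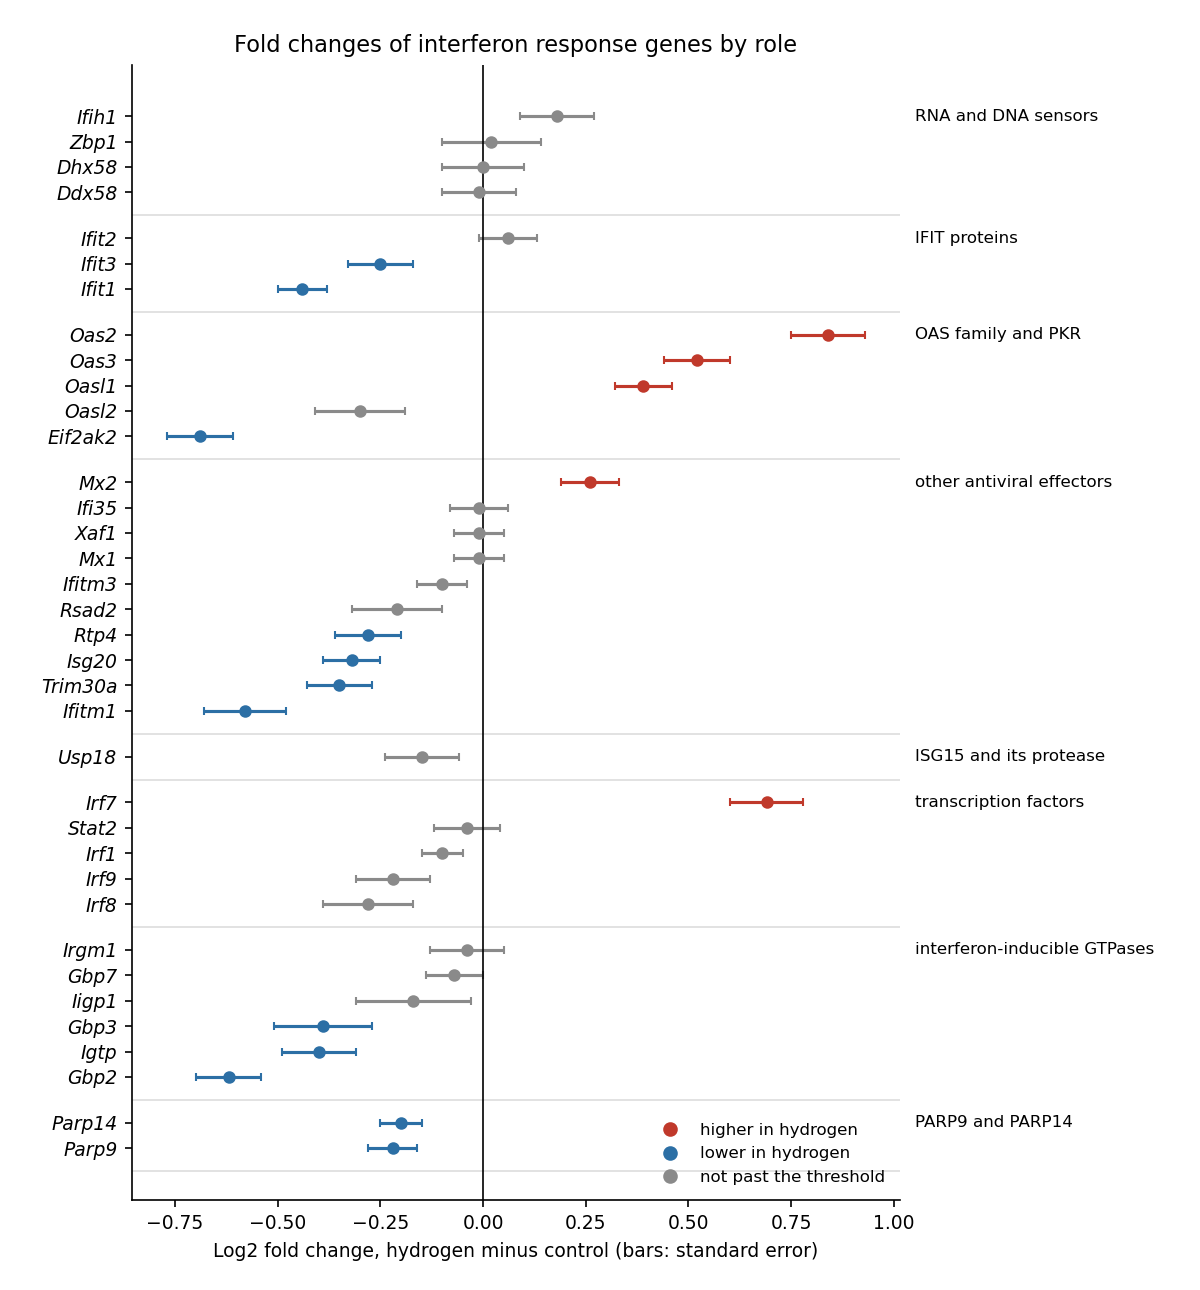
Log2 fold change (hydrogen minus control, x axis) of each of the 36 measured genes, ordered by role down the page, with bars for the moderated standard error and colour for the limma call. The highest value is 0.84 for Oas2 and the lowest is -0.69 for Eif2ak2, both in the same role group.

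Brightness moved with the direction of change over the whole array. Genes in the third of 10 groups of rising brightness had a median log2 fold change of 0.21, and those in the eighth had -0.22. The 5 members that were higher had dim to middling probe sets, with mean levels of 4.37 to 5.53 on the log2 scale. The 12 that were lower had mean levels of 5.15 to 9.19, with a median of 7.60. Measured from the median of genes of like brightness, all 5 higher genes still lay above it, by 0.16 to 0.73. Of the 12 lower genes, 11 lay below it and the largest gap was -0.79. For Parp9 and Parp14 that gap was 0.00 and 0.01. After cyclic loess, which removes such a trend between arrays, 5 of the 5 higher genes and 4 of the 12 lower genes were still called in the same direction. Ifit2 and Ifih1 were then called higher and Oasl2 lower. With this scaling 7 members were higher and 5 lower, against 20.5% and 16.1% of all genes. Renewed quantile normalisation gave 8 higher and 5 lower, against 22.8% and 14.5% of all genes. Median centring gave 4 higher and 18 lower, against 15.7% and 35.8% of all genes. The arrays correlated at r = 0.995 to 0.997 within a group and 0.980 to 0.988 between groups. Of 85 control probe sets of non-mouse origin, 49.4% were called as well. The labels give no batch, so the exposure cannot be told apart from an unlabelled difference in handling between the groups. In whole lung, fewer cells of a type and less RNA per cell cannot be told apart either. Of 5 markers of lung epithelium, Sftpc, Scgb1a1, Sftpa1 and Ager were bright. Sftpc, a surfactant protein gene, had 13.16, 13.16 and 13.19 in hydrogen lungs and 13.15, 13.16 and 13.14 in control lungs. The highest mean level of any gene was 13.22, so Sftpc lies near the top of the scale, where a difference may not show. The 2 epithelial markers that passed were lower, namely the cilia factor gene Foxj1 (-0.58, limma adjusted p = 0.00454) and the alveolar type 1 cell gene Ager (-0.15, limma adjusted p = 0.0437).

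**Figure D2:**
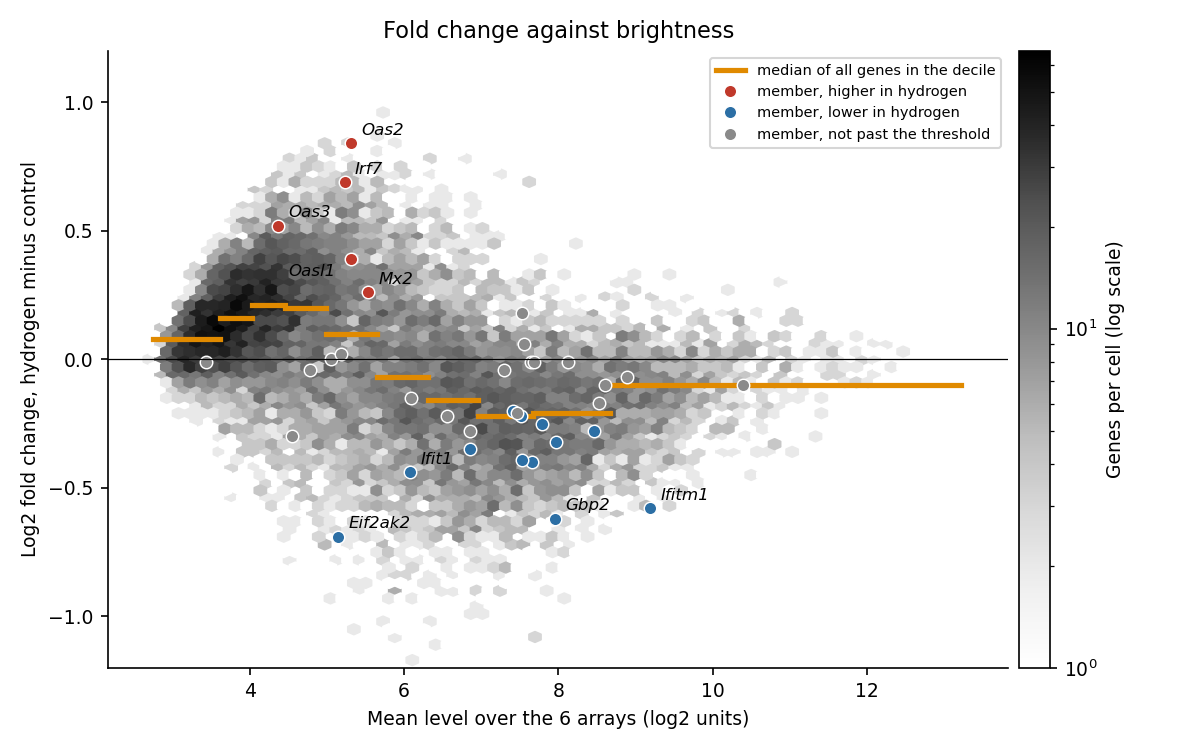
Log2 fold change (hydrogen minus control, y axis) against the mean level over the 6 arrays (x axis, log2 units) for all genes (grey cells, genes beyond 1.2 not drawn) and for the members (points coloured by call), with orange lines for the median of each decile. The decile medians run from 0.21 among dim genes to -0.22 among bright genes, and Oas2, Irf7, Eif2ak2, Ifitm1, Gbp2 and Ifit1 lie apart from them. So do Oasl2 (-0.50 from its decile median) and Ifih1 (0.40), which did not pass the threshold.

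Of the oligoadenylate synthetase family, Oas2, Oas3 and Oasl1 were higher, and Oas2 had the highest fold change of all members. OAS enzymes sense double-stranded RNA and make an oligoadenylate messenger that activates RNase L. Oas2 had log2 levels of 5.64, 5.79 and 5.76 in hydrogen lungs, against 4.76, 5.07 and 4.85 in control lungs. Every hydrogen value lay above every control value, and the difference was 0.84 (SE 0.09, limma adjusted p = 0.000387). Oas3 had 4.66, 4.69 and 4.55 in hydrogen lungs, against 4.00, 4.08 and 4.26 in control lungs. Its groups did not overlap either, with a difference of 0.52 (SE 0.08, limma adjusted p = 0.0014), and its level lay below the median probe set of 4.80. Oasl1, an OAS-like gene whose mouse protein is known to repress translation of Irf7, had 5.55, 5.53 and 5.43 in hydrogen lungs and 5.11, 5.01 and 5.21 in control lungs. It was higher by 0.39 (SE 0.07, limma adjusted p = 0.00252). Oasl2 went the other way without passing the threshold. It had 4.47, 4.44 and 4.29 in hydrogen lungs, against 4.50, 4.95 and 4.64 in control lungs (-0.30, limma adjusted p = 0.0549). Oasl2 passed in 9 of the other settings, with -0.44 after cyclic loess (limma adjusted p = 0.015) and -0.40 without control replicate 1 (limma adjusted p = 0.0229).

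Eif2ak2 had the lowest fold change of all members. It encodes PKR, a kinase that binds double-stranded RNA and halts translation by phosphorylating the initiation factor eIF2. Its levels were 4.78, 4.81 and 4.83 in hydrogen lungs, against 5.66, 5.40 and 5.43 in control lungs. The hydrogen values were close together (SD 0.03) and all below the control values, and the gene fell by 0.69 (SE 0.08, limma adjusted p = 0.000457). Genes of like brightness had a median of 0.10, so Eif2ak2 and Oas2 departed in opposite directions from the same decile. After cyclic loess Eif2ak2 had -0.76 and Oas2 0.80.

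**Figure D3:**
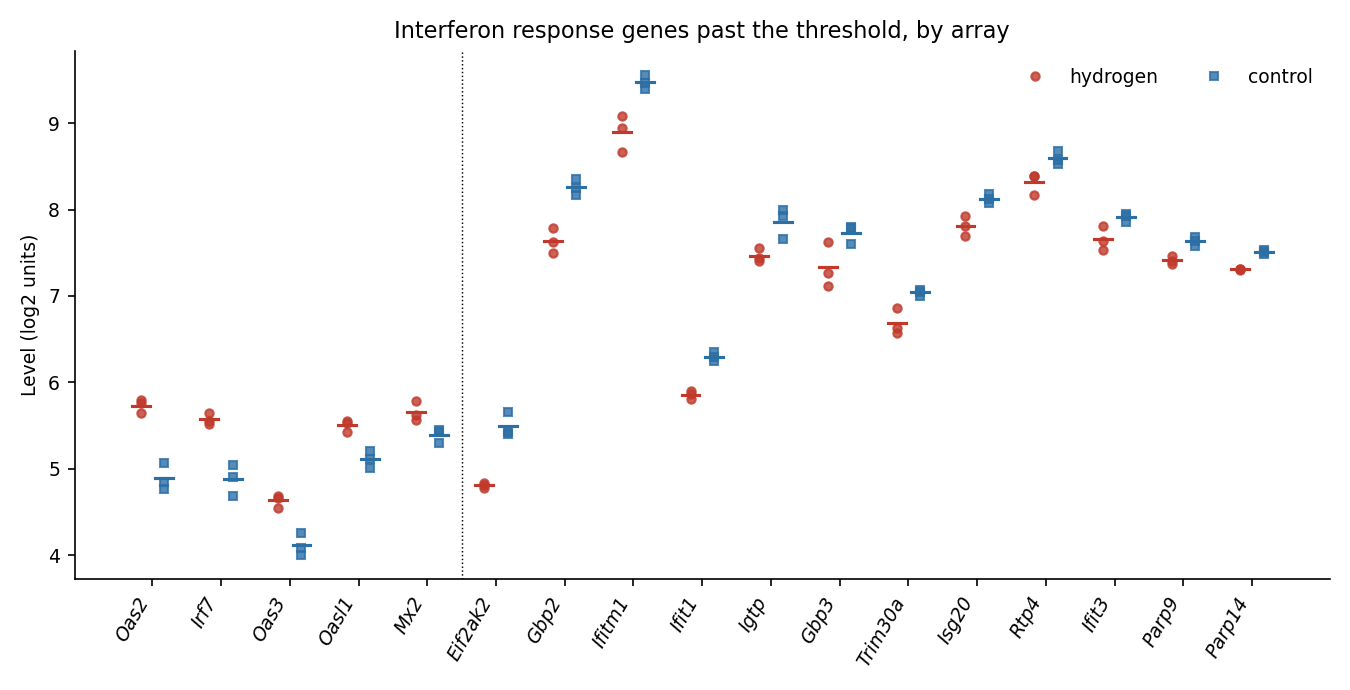
Log2 level on each array (y axis) for the 17 members past the threshold (x axis), with hydrogen arrays as circles, control arrays as squares and a line at each group mean; genes left of the dotted line were higher in hydrogen lungs. Gbp3 is the 1 gene among the 17 whose groups overlap.

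Of the transcription factors, Irf7 differed. IRF7 is the factor that amplifies type I interferon production, and its gene is itself induced by interferon. Irf7 had 5.55, 5.65 and 5.52 in hydrogen lungs, against 4.69, 5.04 and 4.91 in control lungs. The groups did not overlap, and the difference was 0.69 (SE 0.09, limma adjusted p = 0.000805). Genes of like brightness had a median of 0.10. The other 4 factors did not pass. Stat2, which carries the type I signal to the nucleus, had 4.85, 4.80 and 4.63 in hydrogen lungs and 4.86, 4.70 and 4.84 in control lungs (-0.04, SE 0.08). Irf9, the DNA-binding partner of STAT2, had 6.50, 6.40 and 6.45 in hydrogen lungs and 6.85, 6.47 and 6.68 in control lungs (-0.22, SE 0.09). The single overlap for Irf9 was control replicate 2, without which it had -0.31 (limma adjusted p = 0.017). After cyclic loess Irf9 had -0.06 (limma adjusted p = 0.646). Irf1, a factor induced through GAS elements, had -0.10 and Irf8, a factor of dendritic cells and macrophages, had -0.28. Without hydrogen replicate 2 Irf8 had -0.41 (limma adjusted p = 0.00902), but after cyclic loess it had -0.10 (limma adjusted p = 0.514). A dimmer Irf8 probe set had 0.01 (limma adjusted p = 0.929), and the mean of its probe sets was -0.14 (limma adjusted p = 0.209).

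The IFIT genes encode proteins that bind foreign RNA ends and block translation. Ifit1 and Ifit3 were lower and Ifit2 did not pass. Ifit1 had 5.90, 5.86 and 5.81 in hydrogen lungs, against 6.29, 6.35 and 6.25 in control lungs. The groups were well apart, with a difference of -0.44 (SE 0.06, limma adjusted p = 0.000759). Ifit3 had 7.64, 7.53 and 7.81 in hydrogen lungs and 7.92, 7.95 and 7.86 in control lungs (-0.25, limma adjusted p = 0.0273). Genes of like brightness had -0.21, and Ifit3 was -0.05 after cyclic loess. Its call was lost without hydrogen replicate 1 or 2 (limma adjusted p = 0.0735 and 0.0939) and without control replicate 1 or 2 (0.068 and 0.0819). Ifit2 had 0.06, and it was higher after cyclic loess (0.26, limma adjusted p = 0.0181).

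None of the sensors of viral nucleic acid passed the threshold. They are Ifih1 (MDA5) and Ddx58 (RIG-I), which signal from RNA to interferon, their relative Dhx58 (LGP2), and Zbp1, a sensor that can trigger cell death. At unadjusted p under 0.05 the count was 0 of 4 too. Their fold changes ran from -0.01 for Ddx58 to 0.18 for Ifih1. Ifih1 was called higher after cyclic loess (0.38, limma adjusted p = 0.0117), renewed quantile normalisation (0.41, limma adjusted p = 0.00952) and without control replicate 1 (0.28, limma adjusted p = 0.0267). The probe sets of Ddx58 disagreed. The brightest had 7.65, 7.78 and 7.47 in hydrogen lungs and 7.78, 7.61 and 7.53 in control lungs. A dimmer probe set of the same gene had 5.17, 5.34 and 5.55 in hydrogen lungs, against 5.96, 5.82 and 6.03 in control lungs, a difference of -0.58 (limma adjusted p = 0.00237). With the mean of all its probe sets Ddx58 had -0.18 (limma adjusted p = 0.015).

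Among the members listed as Mx, IFITM and other antiviral effectors, 1 was higher and 4 were lower of 10 measured. Over all genes the shares were 25.5% higher and 25.9% lower. The median of the effectors was -0.16, that of their brightness deciles was -0.18, and after cyclic loess they had -0.05. Ifitm1 encodes a membrane protein that hinders fusion of entering viruses. It had 8.94, 8.67 and 9.08 in hydrogen lungs, against 9.56, 9.47 and 9.40 in control lungs (-0.58, SE 0.10, limma adjusted p = 0.0026). All hydrogen values were lower, and genes of like brightness had a median of -0.10. Its relative Ifitm3, which restricts influenza virus, had -0.10 and did not pass. Mx2, a dynamin-like GTPase gene, had 5.62, 5.78 and 5.57 in hydrogen lungs and 5.30, 5.43 and 5.45 in control lungs (0.26, SE 0.07, limma adjusted p = 0.0186). The groups did not overlap, but the call was lost without hydrogen replicate 2 (0.20, limma adjusted p = 0.0654), without control replicate 1 (0.22, limma adjusted p = 0.0609) and after median centring (0.17, limma adjusted p = 0.0813). Mx1 had 3.43, 3.44 and 3.41 in hydrogen lungs and 3.46, 3.50 and 3.36 in control lungs. These values are near the bottom of the scale, and BALB/c mice are known to carry a defective Mx1 allele. The other lower genes were Trim30a (-0.35), the exonuclease gene Isg20 (-0.32) and Rtp4 (-0.28). After cyclic loess they had -0.17, -0.12 and -0.09 and did not pass (limma adjusted p = 0.133, 0.22 and 0.372). A dimmer Trim30a probe set had -0.01 (limma adjusted p = 0.93), and the mean of its probe sets was -0.18 (limma adjusted p = 0.0283). The Rtp4 call was also lost without control replicate 1 (limma adjusted p = 0.0617) and with the mean of its probe sets (-0.11, limma adjusted p = 0.0906). Rsad2, which encodes the antiviral radical enzyme viperin, had -0.21 and did not pass, but had -0.34 without control replicate 1 (limma adjusted p = 0.00756). A dimmer Rsad2 probe set was lower (-0.37, limma adjusted p = 0.00178). Ifi35 and Xaf1 both had -0.01, and a dim Xaf1 probe set was higher (0.22, limma adjusted p = 0.0472). Xaf1 was higher after renewed quantile normalisation (0.21, limma adjusted p = 0.0354). Usp18, the protease that removes ISG15 from proteins and damps receptor signalling, had -0.15, and -0.24 without control replicate 3 (limma adjusted p = 0.047).

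The interferon-inducible GTPases attack the vacuoles of bacteria and parasites and are induced above all by interferon gamma. All 6 had fold changes below 0 and 3 were lower past the threshold, where 25.9% of all genes were lower. Their median was -0.28 and that of the brightness deciles they lie in was -0.21, so values below 0 were common at this brightness. After cyclic loess their median was -0.09. After cyclic loess Gbp7 (0.09), Irgm1 (0.16) and Iigp1 (0.01) lay above 0. Gbp2 had 7.50, 7.62 and 7.79 in hydrogen lungs, against 8.35, 8.25 and 8.17 in control lungs (-0.62, SE 0.08, limma adjusted p = 0.000947). That probe set is marked by its name as sharing probes with other transcripts. The other Gbp2 probe set had 7.42, 7.36 and 7.49 in hydrogen lungs and 7.71, 7.61 and 7.57 in control lungs. It was lower too, by a smaller amount (-0.21, limma adjusted p = 0.0258). Igtp had 7.40, 7.44 and 7.55 in hydrogen lungs, against 8.0, 7.92 and 7.66 in control lungs (-0.40, SE 0.09, limma adjusted p = 0.00856). Gbp3 had 7.12, 7.27 and 7.62 in hydrogen lungs and 7.79, 7.80 and 7.60 in control lungs (-0.39, SE 0.12, limma adjusted p = 0.0281). Its groups overlapped, through hydrogen replicate 3 and control replicate 3. The Gbp3 call was lost without hydrogen replicate 1 or 2 (limma adjusted p = 0.0858 and 0.085) and without control replicate 1 or 2 (0.0822 and 0.0879). After cyclic loess Igtp had -0.20 and Gbp3 -0.19, and neither passed (limma adjusted p = 0.116 and 0.237). Gbp7, Iigp1 and Irgm1 had -0.07, -0.17 and -0.04 at their brightest probe sets. Dimmer probe sets of Gbp7 (-0.58, limma adjusted p = 0.00225) and Iigp1 (-0.52, limma adjusted p = 0.0114) were lower, so both genes gave different answers by probe set.

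Parp9 and Parp14 encode ADP-ribosyltransferase family proteins of the interferon response. Parp9 had 7.37, 7.41 and 7.46 in hydrogen lungs and 7.64, 7.68 and 7.58 in control lungs (-0.22, SE 0.06, limma adjusted p = 0.013). Parp14 had 7.31, 7.31 and 7.30 in hydrogen lungs and 7.53, 7.49 and 7.51 in control lungs (-0.20, SE 0.05, limma adjusted p = 0.0112). The groups did not overlap for either gene. Genes of like brightness had a median of -0.22, and after cyclic loess the values were -0.02 and 0.00, neither past the threshold (limma adjusted p = 0.817 and 0.976). The Parp14 call was also lost with the mean of its probe sets (-0.13, limma adjusted p = 0.0512).

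**Figure D4:**
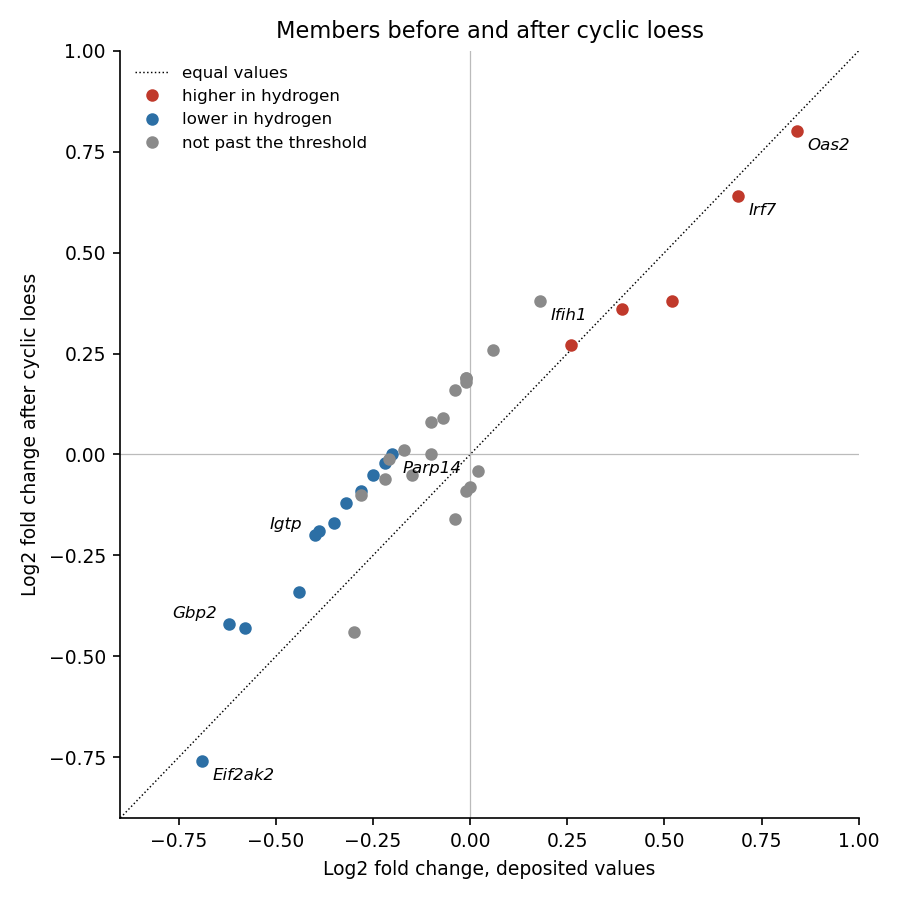
Log2 fold change after cyclic loess (y axis) against that of the deposited values (x axis) for the 36 members, coloured by the call on the deposited values, with a dotted line of equal values. Oas2, Irf7 and Eif2ak2 stay near the line, while most lower genes such as Igtp (-0.20) and Parp14 (0.00) move toward 0.

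The rest of the pathway was read from lists of 129 genes outside the members, of which 106 were measured. Of these, 20 were higher and 32 lower, or 49.1%, against the background of 51.4% of all genes, and their median was -0.02. Over all genes 25.5% were higher and 25.9% lower. Of 11 interferon ligand genes 6 were higher and none lower, with a median of 0.34. At unadjusted p under 0.05 the count of lower ligands was 0 as well. They included Ifna2 (5.95, 5.97 and 5.91 in hydrogen lungs, against 5.38, 5.25 and 5.38 in control lungs, limma adjusted p = 0.000326), Ifna1 (0.76) and Ifnab (0.46). These genes are close copies, so probes of one may read another, and their brightness deciles had a median of 0.16. In the third decile, which holds Ifna1, 877 of 1709 genes were higher. After cyclic loess the ligand median was 0.22. The ligands were dim, with a list mean of 4.27 to 4.32 in hydrogen lungs and 3.92 to 4.03 in control lungs. That is below the median probe set of 4.80, though Ifna2 had a mean level of 5.64. Ifnb1, the early type I interferon gene, had 0.22 and Ifng 0.03, and neither passed. Of 6 receptor genes 4 were lower: Ifngr2 (-0.26), Ifnar1 (-0.24), Il10rb (-0.21), which serves type III interferon, and Ifngr1 (-0.17). Ifnar2 had -0.06. The medians were -0.19 for the receptors and -0.21 for the deciles they lie in, and the receptors had a median of -0.02 after cyclic loess.

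Of the kinases and STATs, Jak2 (-0.32), the kinase of the interferon gamma receptor, and Stat5a (-0.23) were lower. Jak1 (-0.10) and Tyk2 (0.02) did not pass. The share called was 33.3% of 6 genes, against 51.4% of all genes. The list median was -0.09, that of its brightness deciles was -0.21, and after cyclic loess the list had 0.08. Jak2 then had -0.12 and Stat5a -0.07. Among 13 genes that lead to interferon production, the endosomal DNA sensor gene Tlr9 (0.50), Irf5 (0.44) and the adaptor gene Ticam1 (0.30) were higher. The RNA sensor gene Tlr3 (-0.56), Tlr4 (-0.56), Trim25 (-0.25), which activates RIG-I, and Tbk1 (-0.18) were lower. The share called was 53.8%, against 51.4% of all genes. The list median was 0.04, that of its deciles was -0.10, and after cyclic loess the list had 0.13. Tlr9, Irf5 and Ticam1 then had 0.38, 0.45 and 0.24. Tlr3, Tlr4, Trim25 and Tbk1 then had -0.37, -0.38, -0.06 and -0.02. Of 15 inhibitors 3 were higher and 7 lower, or 66.7%, against 51.4% of all genes. The list median was -0.12, that of its deciles was -0.16, and after cyclic loess the list had -0.08. Pias4, an inhibitor of STAT signalling, had 7.04, 7.14 and 6.97 in hydrogen lungs, against 6.20, 6.28 and 6.21 in control lungs (0.82, limma adjusted p = 0.000229). Socs1 (0.26), the feedback inhibitor of JAK kinases, and the DNA exonuclease gene Trex1 (0.35) were higher too. The phosphatase gene Ptpn11 (-0.48), Pias3 (-0.46) and Irf2 (-0.55), a repressor of ISRE genes, were lower. Stat4, which was on that list, is no inhibitor and had 0.02.

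Of 37 further interferon-stimulated genes 6 were higher and 12 lower, or 48.6%, against 51.4% of all genes. The list median was -0.11, that of its deciles was -0.10, and after cyclic loess the list had -0.01. Trim34a (0.39), Gbp4 (0.53) and the RNA helicase gene Mov10 (0.36) were higher. Znfx1 (-0.39), Ifitm2 (-0.44) and the nucleotide kinase gene Cmpk2 (-0.52) were lower. The chemokine genes Cxcl9 (-0.11) and Cxcl10 (0.06) did not pass. Of 18 immunoproteasome and MHC genes 2 were higher and 3 lower, or 27.8%, against 51.4% of all genes. The list median was 0.01, that of its deciles was -0.10, and after cyclic loess the list had 0.10. H2-D1, which encodes a class I heavy chain, had 11.18, 11.06 and 11.10 in hydrogen lungs, against 10.92, 10.79 and 10.81 in control lungs (0.27, limma adjusted p = 0.00773), and Ciita, the class II transactivator gene, had 0.36. Erap1 (-0.33), a peptide trimmer, H2-Q4 (-0.53) and Psmb9 (-0.29), an immunoproteasome subunit, were lower. After cyclic loess Erap1, H2-Q4 and Psmb9 had -0.22, -0.33 and -0.10, while H2-D1 and Ciita had 0.34 and 0.27.

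**Figure D5:**
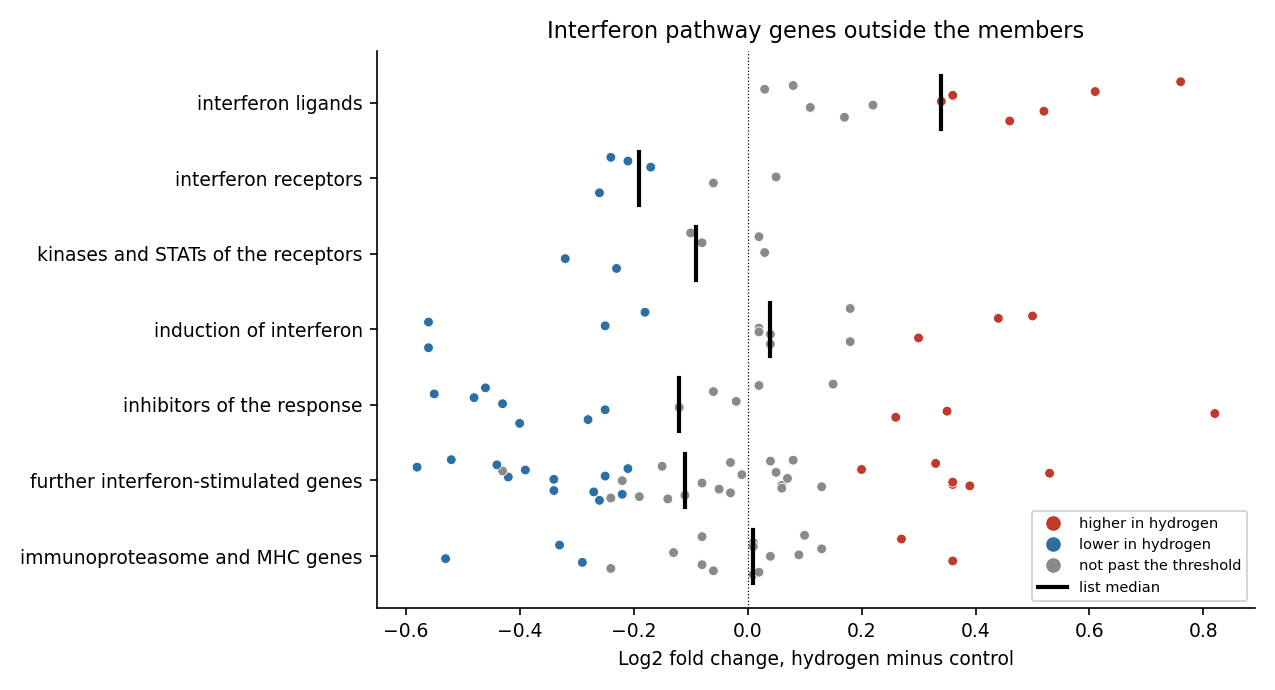
Log2 fold change (hydrogen minus control, x axis) of the 106 measured pathway genes outside the members, by list (y axis), coloured by the limma call, with a black line at each list median. The ligand list has its median at 0.34 and the receptor list at -0.19.

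Markers of other cell types were set beside these results, and no list was tested as a whole. Of all genes 51.4% were called, 25.5% higher and 25.9% lower. T cell markers were higher for 4 of 8 genes and lower for 0 (0 too at unadjusted p under 0.05), with a mean level of 5.33 to 5.45 in hydrogen lungs and 5.03 to 5.26 in control lungs. Their median fold change was 0.23, and that of their brightness deciles 0.15. B cell markers were higher for 4 of 6, with 5.98 to 6.20 in hydrogen lungs and 5.73 to 5.87 in control lungs, and a median of 0.32 against -0.06 for their deciles. Conventional dendritic cell markers were higher for 3 of 6, with 5.14 to 5.30 in hydrogen lungs and 5.01 to 5.08 in control lungs, and a median of 0.15 against 0.10 for their deciles. Monocyte markers were higher for 3 of 7 and lower for 1, with 6.49 to 6.64 in hydrogen lungs and 6.46 to 6.47 in control lungs. Of 6 alveolar macrophage markers 3 were lower, with a list mean of 6.14 to 7.17 in hydrogen lungs and 7.16 to 7.45 in control lungs. Fabp4, which adipocytes also express and which did not pass, had 9.79, 5.04 and 7.58 in hydrogen lungs and 9.70, 9.90 and 10.0 in control lungs. Without Fabp4 the list mean was 6.36 to 6.64 in hydrogen lungs and 6.66 to 6.94 in control lungs. Of 5 plasmacytoid dendritic cell markers 2 were higher and 1 lower, with 6.46 to 6.57 in hydrogen lungs and 6.61 to 6.63 in control lungs. The lower gene was Cox6a2 (-1.41), which striated muscle also expresses. Without Cox6a2 the direction of the list mean turned, with 6.19 to 6.31 in hydrogen lungs and 5.96 to 6.02 in control lungs. The 4 genes left were split. Klk1 (0.59) and Ly6d (0.51) were higher, while Tcf4 (-0.06) and Ccr9 (-0.06) did not pass. NK cell markers were higher for 2 of 6 (5.99 to 6.26 in hydrogen lungs, 5.84 to 6.12 in control lungs). Of 5 neutrophil markers 0 passed, with 6.59 to 7.04 in hydrogen lungs and 6.23 to 6.63 in control lungs. At unadjusted p under 0.05, 2 neutrophil markers were higher. All 5 lay above 0, with a median of 0.33 against -0.10 for their deciles. Of 6 endothelial markers 1 was lower (9.21 to 9.44 in hydrogen lungs, 9.35 to 9.45 in control lungs). All 7 cardiac muscle markers were lower, with 5.58 to 7.52 in hydrogen lungs and 8.71 to 9.08 in control lungs. No marker stands at 0, since the log2 scale of these arrays has a floor above it. The part of these cells in the interferon results was not tested.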

How the data were processed

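Whole-lung RNA of 6 mice was measured on MG-430 PM Array Strips, 1 array per mouse. The deposited table holds log2 values per probe set that the authors made with RMA and Affymetrix Expression Console, per the submitters' processing notes. Tool versions are not given here, and it is not known if 1 RMA run covered the 6 arrays. RMA narrows differences of dim and saturated probe sets. Depth has no meaning for arrays, and the number of arrays limits the precision. Each mouse is a replicate. With 3 arrays a group, 0.1 is the smallest two-sided p of an exact permutation test.

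Hydrogen was compared with control for 45037 probe sets (manufacturer's controls left out) with limma 3.58.1 in R 4.3.3 (lmFit, eBayes), without a filter, a block or renewed scaling, with Benjamini-Hochberg adjustment over all of them. Standard errors are moderated. A gene took the value of its brightest single-gene probe set. Of the probe sets, 28898 had 1 gene symbol, 551 had several and 15588 had none; all 36 member symbols matched RefSeq by Entrez identifier. Brightness deciles were formed from the mean over all arrays.

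Per-array values were printed for the 6 highest and 6 lowest changes past the threshold, for the highest and lowest in each role, and for Stat2, Irf7, Irf9, Mx1 and Ifit1. Pathway genes were named by smallest p, with Ifnb1, Ifng, the receptors, Jak1, Tyk2 and Socs1 whatever their test. Oasl2, Tbk1, Stat4, Cxcl9, Cxcl10, the settings of members off these rules and probe sets that disagreed were named after their values were seen. The members, lists and settings were chosen with earlier results of these data known. Same-numbered arrays of the groups did not deviate together (r = 0.078, 0.029 and -0.109). With 3 arrays a group this cannot exclude a weak pairing by number. On simulated arrays with 45037 probe sets, limma recovered 59 of 100 changes of 0.5 and 97 of 100 of 1 on the log2 scale, with 5 false calls among 44837; no shift between groups was simulated. Figures were drawn with matplotlib 3.10.9.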

Additional observations from a re-analysis of the deposited data

How the results depend on the processing

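The calls were repeated in 16 other settings, 6 of which left out an array. Of the 5 member genes that were higher, 4 kept their call in every setting that held them (Oas2, Oas3, Oasl1 and Irf7), and of the 12 that were lower, 4 did (Eif2ak2, Gbp2, Ifitm1 and Ifit1). The Gbp2 value was -0.21 without shared probe sets. Renewed quantile normalisation gave 8 member genes higher and 5 lower (median -0.01), 9 member probe sets lower, and 34 pathway genes higher and 13 lower (median 0.07). With it 11 of 36 members changed sign, among them Parp9 (0.01) and Parp14 (0.02), which had been called, and Xaf1 (0.21), which passed with it; the other 8 passed in neither. Cyclic loess turned 8 signs and median centring 2. Cyclic loess gave 5 member genes lower (median -0.03), 9 member probe sets lower and 14 pathway genes lower (median 0.07). Median centring gave medians of -0.22 for the members and -0.11 for the pathway genes; it moved the split of all genes to 15.7% higher and 35.8% lower, where renewed quantile normalisation gave 22.8% and 14.5%. Without dim probe sets 10 pathway genes were higher (median -0.08), and without shared probe sets 13 were, with a member median of -0.09. Averaging the probe sets of each gene gave a pathway median of 0.00. These settings change the scaling or the probe sets tested. Leaving out each array in turn gave 4 to 5 member genes higher and 10 to 13 lower, with medians of -0.17 to -0.08, and 4 to 7 member probe sets higher and 14 to 18 lower. For the pathway genes it gave 17 to 21 higher and 22 to 31 lower, with medians of -0.05 to 0.00. The replicate block gave 5 member genes higher and 13 lower, with Gbp3 lost (adjusted p = 0.0501, limma) and Irf8 and Oasl2 gained. The block gave 17 pathway genes higher and 28 lower. Leaving Cox6a2 or Fabp4 out of a marker list was chosen after seeing the data. Values near the floor of the scale, such as those of Mx1, cannot show a small difference.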
